A study of Homo sapiens with 6 samples.

Results

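The 10 genes described here, among 20812 amplicons of 1 gene or control each, are widely used readouts of the unfolded protein response and the integrated stress response: HSPA5, DDIT3, ATF4, ATF3, TRIB3, ASNS, CHAC1, HERPUD1, DNAJB9 and SESN2. They were taken by gene symbol from a fixed list, and no cut-off on a measured value was applied to them. The libraries came from MCF10A, an immortalised, benign human mammary epithelial cell line, in 3 states with 2 libraries each. The GIRK1 libraries came from cells that stably overexpress KCNJ3, the gene for subunit 1 of the G-protein-activated inwardly rectifying potassium channel GIRK. The eGFP libraries came from control cells that stably overexpress the fluorescent protein eGFP, and the WT libraries from cells labelled as wild type. Both engineered states carried a pIRES2eGFP plasmid with eGFP and went through G418 selection and sorting for green fluorescence, and the WT cells went through neither. The labels do not say whether replicates came from separate cultures or separately made lines, so the p-values measure only the spread between these libraries, which may be technical.

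When unfolded proteins collect in the endoplasmic reticulum (ER), the sensors IRE1, ATF6 and PERK start the unfolded protein response, which raises ER chaperones and the machinery that removes misfolded proteins. PERK also phosphorylates the translation factor eIF2 alpha, as do the kinases GCN2 (amino acid shortage), PKR (double-stranded RNA) and HRI (haem shortage and mitochondrial stress), and this shared step is the integrated stress response. General translation falls while the mRNA of ATF4 is translated better, and ATF4 then drives genes for amino acid supply, feedback control and cell death, so that ATF4 activity is regulated largely at the protein level, which these RNA counts do not measure.

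Motifs known from this pathway were searched in the 250 bases before each RefSeq start site (build GRCh38.p14), on both strands. All 10 members matched, with 16 start sites between them. The motifs were the CCAAT-enhancer binding protein and ATF response element (CARE, TGATGNAA), through which ATF4 acts, the ER stress response element (ERSE, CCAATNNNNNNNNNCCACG), and the unfolded protein response element (UPRE, TGACGTGG). No match overlapped another. CARE letters were found before 4 members (ASNS, ATF3, CHAC1 and HERPUD1) and in 3.14% of all 35116 promoters of the same length. ERSE letters were found before HSPA5 alone of the members and in 0.074% of all promoters, and UPRE letters before 0 members and in 0.612% of all promoters. The 5 promoters with a match are shown because their genes cover both arms of the response, 5′ to 3′ in the direction of the gene, with the motif in capitals. The matches lie at bases -68 to -61 from the start in ASNS, -191 to -184 in ATF3, -209 to -202 in CHAC1 (opposite strand), -176 to -169 in HERPUD1 (opposite strand) and -66 to -48 in HSPA5. A match describes these letters and is no evidence of a bound site.
ASNS, chr7:97872409-97872658, minus strand: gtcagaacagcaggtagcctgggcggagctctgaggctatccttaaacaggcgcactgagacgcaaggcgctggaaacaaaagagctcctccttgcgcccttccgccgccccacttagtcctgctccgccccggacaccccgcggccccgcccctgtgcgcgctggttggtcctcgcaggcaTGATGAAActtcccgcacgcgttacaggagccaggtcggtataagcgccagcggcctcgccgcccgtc
ATF3, chr1:212565157-212565406, plus strand: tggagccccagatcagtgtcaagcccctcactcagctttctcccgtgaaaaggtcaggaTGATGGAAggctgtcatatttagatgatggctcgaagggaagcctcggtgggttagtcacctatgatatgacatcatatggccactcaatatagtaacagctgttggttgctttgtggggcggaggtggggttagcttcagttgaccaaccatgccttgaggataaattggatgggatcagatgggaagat
CHAC1, chr15:40953221-40953470, plus strand: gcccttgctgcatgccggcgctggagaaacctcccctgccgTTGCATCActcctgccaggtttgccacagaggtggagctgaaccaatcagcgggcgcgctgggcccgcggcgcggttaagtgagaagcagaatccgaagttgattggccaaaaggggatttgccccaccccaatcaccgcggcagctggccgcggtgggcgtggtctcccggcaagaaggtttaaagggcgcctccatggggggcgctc
HERPUD1, chr16:56931892-56932141, plus strand: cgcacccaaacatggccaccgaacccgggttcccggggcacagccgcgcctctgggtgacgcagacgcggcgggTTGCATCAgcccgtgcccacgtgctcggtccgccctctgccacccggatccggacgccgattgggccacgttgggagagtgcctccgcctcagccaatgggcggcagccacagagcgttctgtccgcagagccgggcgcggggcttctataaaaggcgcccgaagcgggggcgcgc
HSPA5, chr9:125241344-125241593, minus strand: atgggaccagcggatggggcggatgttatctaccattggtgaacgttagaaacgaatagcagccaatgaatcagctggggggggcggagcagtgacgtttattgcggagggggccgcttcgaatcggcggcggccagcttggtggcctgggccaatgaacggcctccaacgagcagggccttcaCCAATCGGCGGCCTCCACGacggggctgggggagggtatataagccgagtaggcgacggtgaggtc

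Each gene was read through 1 amplicon, and values are RPM, each gene's reads scaled to a common library total. Total reads ranged from 2506120 (WT replicate 1) to 16040556 (WT replicate 2), so that 3 reads, taken as the detection floor, corresponded to 0.187 to 1.20 RPM. KCNJ3 had 2408 and 3677 reads in the GIRK1 libraries (217 and 355 RPM), 0 reads in both eGFP libraries and WT replicate 2, and 48 reads in WT replicate 1. WT replicate 1 stood apart from the other 5 libraries: the summed RPM of 12 luminal, estrogen receptor positive markers was 16820 against 397 to 498 elsewhere, and that of 10 basal markers was 397 against 9756 to 17330. ESR1 (192 RPM) and TFF1 (5106 RPM) were at 0 in the other 5 libraries, KRT14, KRT17 and KRT6A were at 0 in WT replicate 1, and the basal marker TP63 was at 0 in all 6. Summed fibroblast markers reached at most 33.5 RPM in any library. WT replicate 1 therefore goes against its label. It was left out of the main tests, entered only an alternative fit with all 6 libraries, and its values are given apart. GIRK1 and other libraries carry different tags in their deposited names, whose meaning is not stated. Should it mark separate runs, the GIRK1 state and the run cannot be told apart.

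Among the regulators, ATF4 (chromosome 22, 39520559 to 39522686), the transcription factor of the integrated stress response, was at 703 and 1257 RPM in eGFP replicates 1 and 2, 941 and 897 RPM in GIRK1 replicates 1 and 2, and 1118 RPM in WT replicate 2. Both GIRK1 values lay between those of the eGFP libraries. ATF3 (chromosome 1, 212565407 to 212620777), a stress-induced factor of the ATF/CREB family, was at 18.7 and 89.6 RPM in eGFP, 47.0 and 65.2 RPM in GIRK1 and 57.4 RPM in WT replicate 2, so the eGFP pair again enclosed the GIRK1 pair. DDIT3 (chromosome 12, 57516588 to 57520517), which encodes the pro-apoptotic factor CHOP, gave 0 and 3 reads in eGFP, 1 and 1 in GIRK1 and 16 in WT replicate 2. In the eGFP and GIRK1 libraries DDIT3 was at or under the floor of 3 reads, equal to 0.585 and 0.293 RPM in the eGFP libraries and 0.270 and 0.290 RPM in the GIRK1 libraries, and a difference between these states was not detectable at this depth.

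Among the targets of ATF4, TRIB3 (chromosome 20, 380760 to 397559), a pseudokinase that restrains ATF4, was at 282 and 1084 RPM in eGFP, 979 and 1054 RPM in GIRK1 and 1250 RPM in WT replicate 2. ASNS (chromosome 7, 97851677 to 97928441), the asparagine synthetase, was at 31.2 and 189 RPM in eGFP, 176 and 188 RPM in GIRK1 and 199 RPM in WT replicate 2. In both genes 4 of the 5 libraries lay close together and eGFP replicate 1 lay far below them. CHAC1 (chromosome 15, 40953471 to 40956512), which degrades glutathione, had 9 reads in eGFP replicate 1 (exact 95% binomial interval 0.803 to 3.33 RPM) and 49.5 RPM in eGFP replicate 2, with 33.3 and 62.1 RPM in GIRK1 and 60.8 RPM in WT replicate 2. SESN2 (chromosome 1, 28259518 to 28282491), a sestrin that dampens mTORC1 signalling when leucine is short, was at 24.0 and 182 RPM in eGFP, 266 and 328 RPM in GIRK1 and 162 RPM in WT replicate 2. SESN2 in both GIRK1 libraries lay above all 3 of these control libraries. Intervals on reads cover counting error only, since amplified reads are not independent molecules.

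Among the genes of the ER itself, HSPA5 (chromosome 9, 125234853 to 125241343), the chaperone BiP, was at 739.8 and 1463 RPM in eGFP, 1205 and 1741 RPM in GIRK1 and 1838 RPM in WT replicate 2, and the groups overlapped. HERPUD1 (chromosome 16, 56932142 to 56944864), a membrane protein of ER-associated degradation, was at 89.9 and 211 RPM in eGFP, 229.8 and 289 RPM in GIRK1 and 270.0 RPM in WT replicate 2. DNAJB9 (chromosome 7, 108569874 to 108574850), a BiP cochaperone and target of the IRE1 arm, was at 18.3 and 46.7 RPM in eGFP, 50.9 and 58.6 RPM in GIRK1 and 43.7 RPM in WT replicate 2. Both GIRK1 libraries exceeded both eGFP libraries in HERPUD1 and DNAJB9, and in DNAJB9 they also exceeded WT replicate 2.

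**Figure D1:**
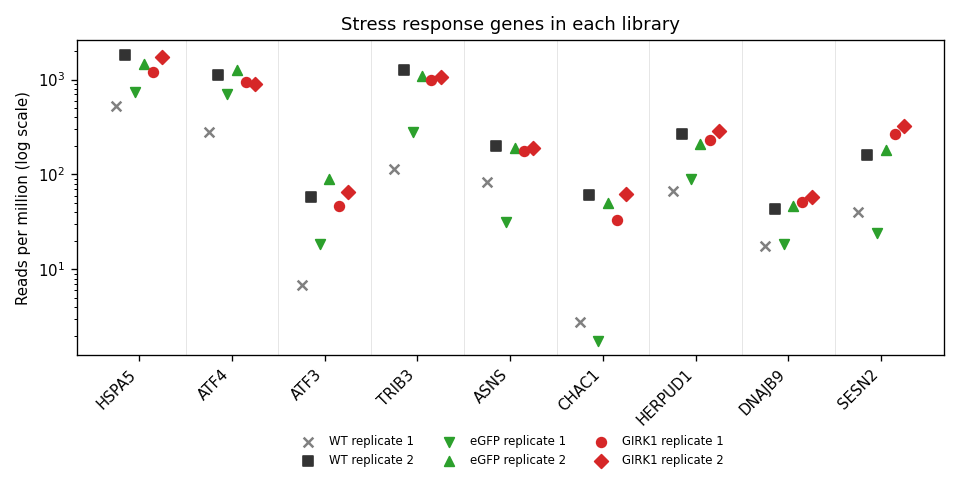
RPM of each member above the floor (log axis) in each of the 6 libraries, 1 point per library, with WT replicate 1 as grey crosses. In TRIB3, ASNS, CHAC1 and SESN2 eGFP replicate 1 lies far below eGFP replicate 2, WT replicate 2 and both GIRK1 libraries.

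The study compared GIRK1 with eGFP cells to ask what the overexpressed channel subunit changes in a benign epithelial line. None of the 10 members passed the test in that comparison (0 of 10 at an adjusted p below 0.05, by the quasi-likelihood F-test of edgeR, Benjamini-Hochberg adjusted), where 1.6% of the 11779 genes tested did. At an unadjusted p below 0.05 the count was again 0 of 10, beside 18.8% of all genes. DESeq2 called 0 members adjusted, beside 677 of the 11779 genes, and 1 unadjusted, beside 1859, a share of members not above that of all genes. The study's own criterion, a change of at least 2-fold with replicates that vary little, took 0 of 10 beside 6.29% of all amplicons. The study did not apply it to WT. Applied here against WT replicate 2, a lone library with no spread to check, it took DDIT3 alone, beside 6.16%. DDIT3 had 1 read in each GIRK1 library. The fitted log2 fold change of 8 of the 9 members above the floor was positive, with a median of 0.72 (0.02 over all genes tested). SESN2 had the largest, at 1.53 (SE 0.74, adjusted p = 0.315), from 103 ± 111 RPM in eGFP to 297 ± 43.7 RPM in GIRK1 (mean ± SD, n = 2 each). HERPUD1 had a log2 fold change of 0.77 (SE 0.37, adjusted p = 0.315), with 150.4 ± 85.6 RPM in eGFP and 259.6 ± 42.2 RPM in GIRK1. DNAJB9 had 0.72 (SE 0.38, adjusted p = 0.355), with 32.5 ± 20.1 RPM in eGFP and 54.7 ± 5.45 RPM in GIRK1. In these 3 genes both GIRK1 libraries exceeded both eGFP libraries, an arrangement held by 29.2% of all genes tested; 0 members had the opposite arrangement, held by 24.8%. SESN2 and DNAJB9 also exceeded WT replicate 2, as did 21.6% of all genes, so these counts are not above their backgrounds.

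The remaining estimates were smaller or had wider errors. CHAC1 had a log2 fold change of 0.86 (SE 0.99, adjusted p = 0.668), from 25.7 ± 33.8 to 47.7 ± 20.3 RPM, an SD in eGFP above the mean. ASNS had 0.72 (SE 0.65) and TRIB3 0.56 (SE 0.52), each with an adjusted p of 0.585, and the SD in eGFP was 112 RPM for ASNS and 567 RPM for TRIB3 against 8.28 and 53.1 RPM in GIRK1. HSPA5 had 0.40 (SE 0.34, adjusted p = 0.553). ATF3 had 0.03 (SE 0.59, adjusted p = 0.983), with means of 54.2 and 56.1 RPM, and ATF4 had -0.12 (SE 0.28, adjusted p = 0.840), with means of 979.5 and 919 RPM. The SD was larger in the eGFP pair than in the GIRK1 pair in all 9 members above the floor. The eGFP pair also lay further apart over genes at large, as given below.

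Against WT replicate 2, 0 of 10 members passed the test (same edgeR fit, Benjamini-Hochberg adjusted), where 0.229% of all genes tested did. In that fit 1 was below an unadjusted p of 0.05, beside 7.38% of all genes. DESeq2 called 0 adjusted and 0 unadjusted, beside 126 and 622 of the 11779 genes. This comparison uses the same GIRK1 libraries, and the lone WT library was assumed to vary like the other pairs. The median log2 fold change of the 9 members above the floor was -0.11 (0.01 over all genes tested), with the 2 positive values at SESN2 (0.90, SE 0.92, adjusted p = 0.898) and DNAJB9 (0.35, SE 0.47, adjusted p = 0.932). The other 7 lay between -0.33 (CHAC1, SE 1.17) and -0.01 (ATF3, SE 0.72). DDIT3 was the member with an unadjusted p below 0.05 (adjusted p = 0.640 in edgeR), with 16 reads in WT replicate 2 against 2 in the GIRK1 libraries together. Scaled to library totals that is a ratio of 10.7, with an exact 95% interval of 2.52 to 95.9. DDIT3 passed the filter on low counts through WT replicate 2, and without that library only the 9 other members were tested. Its p-value and ratio thus rest on the library that admitted it and give no support for a difference.

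**Figure D2:**
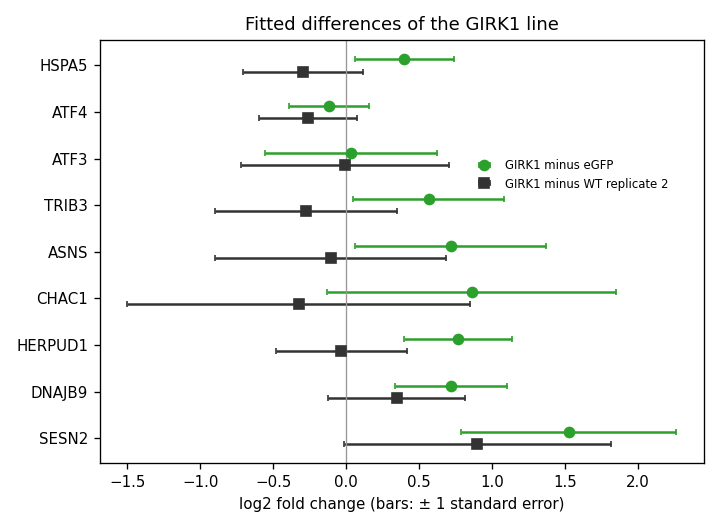
Fitted log2 fold change of GIRK1 against eGFP and against WT replicate 2 for the 9 members above the floor, with standard errors from the edgeR fit as bars. All but ATF4 are positive against eGFP and all but SESN2 and DNAJB9 are negative against WT replicate 2, and none passed the test in either comparison.

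The eGFP replicates differed from each other in these genes by more than the GIRK1 replicates did. All 9 members above the floor were higher in eGFP replicate 2, and 7 of the 9 were at least 2-fold higher on the log2 scale of the fit, against 6.36% of all genes tested. These are differences between single libraries of 1 group and carry no test. CHAC1 was 28.2-fold higher in RPM (exact 95% interval 14.8 to 62.1), SESN2 7.57-fold (6.30 to 9.16) and ASNS 6.07-fold (5.16 to 7.17). The ratio was 4.79 for ATF3 and 3.84 for TRIB3, and among the ER genes 2.55 for DNAJB9, 2.35 for HERPUD1 and 1.98 for HSPA5. ATF4 itself had the smallest ratio, 1.79. Ranked by this ratio among all genes tested, CHAC1 stood at percentile 99.98, SESN2 at 99.8, ASNS at 99.7, ATF3 at 99.4 and TRIB3 at 99.0, with the other members between 88.0 and 96.1. The GIRK1 replicates differed at least 2-fold in 0 of the 9 members, against 3.01% of all genes.

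In WT replicate 2 all 9 were nearer to eGFP replicate 2 than to eGFP replicate 1, as were 71.7% of all genes tested. Both GIRK1 libraries were nearer to eGFP replicate 2 in 8 of the 9, ATF4 being the exception, and in 57.5% of all genes tested. In ATF3 and ATF4 eGFP replicate 2 was also the highest of the 5 libraries in the fit. eGFP replicate 1 was also the shallower of the pair (5126930 against 10233974 reads), with all 9 members above the floor there (CHAC1 at 9 reads). Its 10 most abundant genes took 17.7% of its reads, against 13.2% to 15.8% in the other 4 libraries of the fit. The amplicons of the members hold 38.4% to 67.7% GC, and across the 11779 genes tested, which share these libraries, amplicon GC and the log2 ratio between the eGFP replicates had a Spearman correlation of -0.185. The part of depth, GC and the share taken by abundant genes in the difference was not tested.

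**Figure D3:**
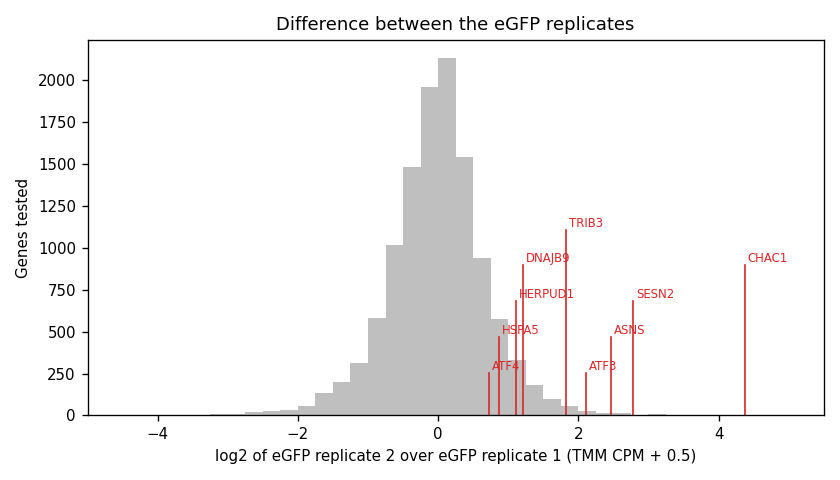
Distribution over the 11779 genes tested of the log2 ratio of eGFP replicate 2 to eGFP replicate 1 (CPM after TMM scaling, plus 0.5), with the 9 members above the floor marked by red lines whose heights carry no value. All 9 lie right of 0, and CHAC1, at 4.38, lies near the end of the distribution.

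The count of members called therefore depended on which eGFP library stood for the control. Without eGFP replicate 2, edgeR's quasi-likelihood test called 8 of the 10 members higher in GIRK1, where 11.7% of all genes were called higher. The log2 fold changes in that fit were 4.65 for CHAC1 (adjusted p = 0.000126), 3.53 for SESN2, 2.44 for ASNS, 1.48 for ATF3, 1.47 for DNAJB9, 1.43 for HERPUD1 and 0.89 for HSPA5 (adjusted p = 0.0243), with TRIB3 also called. ATF4 was not called, at 0.28. Without eGFP replicate 1 the test called 1 member, SESN2 (log2 fold change 0.73, adjusted p = 0.0404), where 3.68% of all genes were called higher. In both fits the lone eGFP library was assumed to vary like the GIRK1 pair. SESN2 was the member called in GIRK1 against eGFP under either choice of library. With either eGFP replicate left out, SESN2 was also called against WT replicate 2, at 0.90 (adjusted p = 0.0199) without eGFP replicate 1 and 0.89 (adjusted p = 0.0363) without eGFP replicate 2, where 2.5% and 1.93% of all genes were called higher, while with both in the fit it was not.

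A further 110 genes of these pathways, in 9 lists that hold none of the 10 members, were counted in the same fits, and 107 of them were abundant enough to be tested. In GIRK1 against eGFP 1 was called higher and 0 lower, beside 1.6% of all genes; at an unadjusted p below 0.05 there were 12 higher and 4 lower, beside 18.8% of all genes. DESeq2 called 5 higher and 0 lower (CANX, EDEM1, EIF2AK2, SLC3A2 and SSR1), beside 5.75% of all genes. Without eGFP replicate 2 the count over 106 tested genes was 50 higher and 10 lower, beside 11.7% and 13.8% of all genes, and without eGFP replicate 1 it was 8 higher and 3 lower of 107, beside 3.68% and 4.65%. The gene called with all 5 libraries, EIF2AK2, encodes PKR, an interferon-inducible kinase of eIF2 alpha. EIF2AK2 was at 71.6 and 56.8 RPM in eGFP, 217 and 266 RPM in GIRK1 and 67.9 RPM in WT replicate 2, so both GIRK1 libraries lay far above all 3 controls. Its log2 fold change was 1.87 (SE 0.26, adjusted p = 0.0233) against eGFP and 1.85 (SE 0.33, adjusted p = 0.147) against WT replicate 2. With WT replicate 1 added as the second WT library the call against eGFP was lost (adjusted p = 0.744; in the other alternatives it lay between 1.67e-07 and 0.0343). Against WT replicate 2, EIF2AK2 was called without the filter on low counts and by DESeq2. It was also called when either eGFP replicate was left out, with the log2 fold change still at 1.85. The eGFP libraries are not in that comparison, and the spread then came from the GIRK1 pair alone.

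The list of ER chaperones and folding enzymes, the class of HSPA5, had a median log2 fold change of 0.23 over 15 genes against eGFP and 0.08 against WT replicate 2. CANX, the lectin chaperone calnexin, had the smallest p of that list, at 538 and 607 RPM in eGFP, 1289 and 922 RPM in GIRK1 and 1059 RPM in WT replicate 2 (log2 fold change against eGFP 0.91, SE 0.24, adjusted p = 0.119). In the list of ER-associated degradation and translocation, EDEM1, which removes misfolded glycoproteins as HERPUD1 helps to do, was at 83.3 and 159.8 RPM in eGFP, 328 and 287 RPM in GIRK1 and 173 RPM in WT replicate 2. Its log2 fold change against eGFP was 1.31 (SE 0.30, adjusted p = 0.0959), and the median of its list of 14 was 0.48. Of the stress transcription factors and effectors, DDIT4, an mTORC1 inhibitor like SESN2, had the opposite sign, at 1137 and 1366 RPM in eGFP and 838 and 786 RPM in GIRK1 (log2 fold change -0.66, SE 0.20, adjusted p = 0.160). ATF5, a transcription factor of the same list, was at 58.7 and 51.3 RPM in eGFP, 91.1 and 91.5 RPM in GIRK1 and 56.0 RPM in WT replicate 2 (log2 fold change against eGFP 0.69, SE 0.21, adjusted p = 0.161). None of CANX, EDEM1, DDIT4 and ATF5 passed edgeR's test with all 5 libraries, and DESeq2 called CANX and EDEM1. The medians against eGFP of the lists not described further were 0.02 for sensors, kinases and phosphatase (14 genes), 0.15 for stress transcription factors and effectors (17 genes) and 0.18 for the mitochondrial unfolded protein response (7 genes). For the lists described below they were 0.27 for amino acid synthesis, 0.91 for amino acid transporters, 0.40 for tRNA synthetases and -0.37 for cytosolic heat shock. Against WT replicate 2 the same lists had medians of -0.19, 0.03, 0.10 and 0.48.

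The lists for amino acid supply, the side of the response to which ASNS belongs, differed between the eGFP replicates in the same direction as the members. All 31 genes tested for amino acid synthesis, amino acid transport and tRNA charging were higher in eGFP replicate 2 than in eGFP replicate 1, 17 of them at least 2-fold, where 6.36% of all genes were. The median log2 ratio between the eGFP replicates was 1.46 for synthesis (10 genes), 1.83 for transporters (9 genes) and 0.86 for tRNA synthetases (12 genes), against 0.00 over all genes. It was 0.72 for ER-associated degradation and translocation, 0.58 for stress transcription factors and effectors, 0.45 for the mitochondrial unfolded protein response, 0.30 for sensors, kinases and phosphatase and 0.06 for the ER chaperones. PSAT1, a serine synthesis enzyme, was at 111 and 709 RPM in eGFP, 860 and 729.5 RPM in GIRK1 and 689 RPM in WT replicate 2. Both GIRK1 libraries lay above all 3 controls, an arrangement held by 21.6% of all genes tested. ALDH18A1, with a smaller p in the same list, ran the other way, with both GIRK1 libraries below all 3 controls. It was at 109 and 120.5 RPM in eGFP, 75.3 and 96.5 RPM in GIRK1 and 122 RPM in WT replicate 2. SLC3A2, the partner chain of several amino acid exchangers, was at 472 and 1030 RPM in eGFP, 1721 and 1708 RPM in GIRK1 and 1193 RPM in WT replicate 2. Its GIRK1 libraries lay above all 3 controls, as in PSAT1 and SESN2. None of these genes passed edgeR's quasi-likelihood test against eGFP (adjusted p = 0.479 for PSAT1, 0.319 for ALDH18A1 and 0.145 for SLC3A2), and DESeq2 called SLC3A2.

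The cytosolic heat shock list, which answers to the factor HSF1 and not to the ER sensors, ran the other way between the eGFP replicates. Of its 9 genes 8 were lower in eGFP replicate 2, 6 of them at least 2-fold, where 6.88% of all genes were, and the list's median log2 ratio was -1.30. HSP90AA1, a cytosolic chaperone, was at 396 and 161 RPM in eGFP, 149.9 and 129 RPM in GIRK1 and 121 RPM in WT replicate 2. HSPA1A, an inducible HSP70 chosen after its values were seen, was at 435 and 44.8 RPM in eGFP, 170.4 and 111 RPM in GIRK1 and 68.0 RPM in WT replicate 2. HSPA1A has a near-identical copy, HSPA1B, and how reads of such pairs were assigned is not given in the sources used here. In eGFP replicate 1 the members were thus low while most heat shock genes were high. Of the heat shock list 0 genes passed the test in GIRK1 against eGFP (2 below an unadjusted p of 0.05, both lower; DESeq2 called 0).

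**Figure D4:**
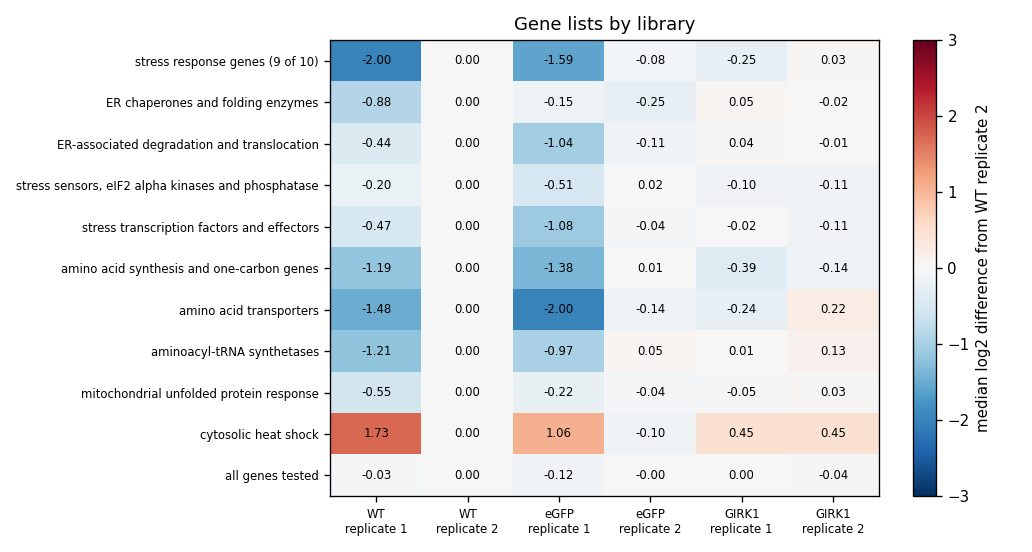
Median over the genes of each list of the log2(RPM + 0.5) difference from WT replicate 2 in each library (red higher, blue lower, WT replicate 2 at 0 by construction). The members stand at -1.59 in eGFP replicate 1 and -2.00 in WT replicate 1, and between -0.25 and 0.03 in the remaining 3, while the heat shock list stands higher in those libraries than in the remaining 3.

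In WT replicate 1 the members were low as well. HSPA5 was at 525 RPM, ATF4 at 281, TRIB3 at 114, ASNS at 83.8, HERPUD1 at 67.0, SESN2 at 39.9, DNAJB9 at 17.6, ATF3 at 6.78 and CHAC1 at 2.79 RPM, and DDIT3 had 0 reads, which allows up to 1.20 RPM. In all 9 members above the floor the lowest 2 of the 6 libraries were WT replicate 1 and eGFP replicate 1, an arrangement held by 19.6% of all genes tested, and WT replicate 1 was the lowest in 6. Unlike the members, the IRE1 target and effector XBP1, chosen after its values were seen, was at 2677 RPM in WT replicate 1 against 125 to 532 RPM in the other 5. The luminal markers of WT replicate 1 given above move with these values, and their part in them was not tested. In eGFP replicate 1 the luminal sum (406.5 RPM) lay within the range of the 4 other libraries. Its basal sum was the highest of the 6 (17330 RPM against at most 11590 RPM). Single luminal markers went both ways among these 5 libraries. AGR2 (0.195 RPM) and KRT18 (308 RPM) were lowest in eGFP replicate 1, while GATA3 (17.8 RPM) and KRT8 (77.8 RPM) were not. The part of cell type in the low values of eGFP replicate 1 was not tested.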

How the data were processed

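RNA of 6 MCF10A libraries was amplified with the Ion AmpliSeq whole-transcriptome panel and sequenced on an Ion S5 XL. The authors mapped reads to a transcriptome reference of the panel with the Ion Torrent suite and deposited a read count per amplicon, and beside it the RPM, the count scaled to a common total of reads per library. Tool versions and the handling of near-identical genes are not given in the sources used here. Of 20812 amplicons, 10 were for spike-in controls and had 0 reads. The deposited counts of 5 libraries (WT replicate 1 left out) were fitted in edgeR 4.0.16 (limma 3.58.1, R 4.3.3) with TMM scaling and a filter on low counts (filterByExpr, 11779 genes kept), 1 mean per group and quasi-likelihood tests of GIRK1 against eGFP and against WT replicate 2. The fit had 2 residual degrees of freedom. P-values were Benjamini-Hochberg adjusted over all genes tested, with a threshold of 0.05. The study's own rule (means 2-fold apart, with replicates whose coefficient of variation stays under 0.7), DESeq2 1.42.0 and other scalings, filters and library sets were alternatives. For that rule both means also had to be above 0, a condition the study does not state. Scripts were tested on simulated counts. Promoter sequences were RefSeq's.

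The members and lists were chosen with earlier results of these data known. All 10 members are named with their values. Of the 9 lists of other pathway genes (ER chaperones and folding enzymes, ER-associated degradation and translocation, stress sensors with eIF2 alpha kinases and phosphatase, stress transcription factors and effectors, amino acid synthesis, amino acid transporters, aminoacyl-tRNA synthetases, mitochondrial unfolded protein response, cytosolic heat shock), genes were eligible to be named if called, or as the 2 of smallest p in a list with none called. Total reads per library set the floor, 3 reads, from 0.187 to 1.20 RPM. The single amplicon per gene makes levels of different genes incomparable, so levels were compared only between libraries.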

Additional observations from a re-analysis of the deposited data

Results flagged for a closer look

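WT replicate 1 entered none of the main comparisons, and 3 of the genes named by the rule were at least 2-fold higher there than in any of the other 3 control libraries. KCNJ3, the overexpressed gene, was at 19.15 RPM against 0 reads in WT replicate 2 and both eGFP libraries. ATF5, a factor of the stress response, was at 151.6 RPM against 51.3 to 58.7 RPM. HSPB1, a small heat shock protein, was at 5052 RPM against 329 to 614 RPM. None of the 10 members was flagged in this way.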

How the results depend on the processing

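The count of genes called in GIRK1 against eGFP was 188 as reported, 865 without the filter on low counts, 107 with at least 10 reads in every library, 677 in DESeq2, 0 with all 6 libraries (606 at an unadjusted p below 0.05), 549 with a replicate block and 1309 under the study's rule of fold and coefficient of variation, and 158 to 2997 with 1 library left out. Against WT replicate 2 the count was 27, and under the same alternatives 133, 16, 126, 0 (648 unadjusted), 77 and 1282, and 34 to 576 with 1 library left out. Members called ranged from 0 to 8 of 10 against eGFP with 1 library left out, the 8 without eGFP replicate 2, and from 0 to 1 against WT replicate 2. The study's rule took 0 members against eGFP, beside 6.29% of all genes. Against WT replicate 2, a lone library, its limit on variation could apply to the GIRK1 pair only. There it took 1 member (DDIT3), beside 6.16% of all genes.

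Against eGFP, leaving out 1 library turned the sign of 5 members, whose log2 fold changes ran from -0.43 to 0.28 for ATF4, -0.65 to 1.48 for ATF3, -0.074 to 1.75 for TRIB3, -0.035 to 2.44 for ASNS and -0.033 to 4.65 for CHAC1. Against WT replicate 2 it ran from -0.29 to 0.22 for ATF3, -0.87 to 0.067 for CHAC1 and -0.23 to 0.14 for HERPUD1. With all 6 libraries, values against WT turned positive for HSPA5 (0.37), ATF4 (0.44), ATF3 (0.81), TRIB3 (0.61), ASNS (0.42), CHAC1 (0.58) and HERPUD1 (0.66), a fit that adds WT replicate 1, where these genes were low. Upper-quartile scaling moved ATF3 to 0.0011.

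The labels do not say whether replicate numbers pair the samples, and the main fit did not pair them. Correlations of same-numbered deviations were 0.194 (eGFP and GIRK1), 0.142 (eGFP and WT) and 0.042 (GIRK1 and WT). Both correlations with WT include WT replicate 1, so these values do not settle the pairing. With the replicate block in edgeR 0 members were called (1 residual degree of freedom). Against eGFP 5 of 10 members had an unadjusted p below 0.05, beside 2467 of 11779 genes. These were ASNS, CHAC1, HERPUD1, DNAJB9 and SESN2, all with positive log2 fold changes. SESN2 had a log2 fold change of 2.07 against eGFP (adjusted p = 0.0640). Values against WT replicate 2 turned positive for HSPA5 (0.036), ATF3 (0.65), TRIB3 (0.27), ASNS (0.63), CHAC1 (0.85) and HERPUD1 (0.33). The cause of the other changes was not tested. DDIT3, at 3 reads or fewer in the eGFP and GIRK1 libraries, and CHAC1, at 9 reads in eGFP replicate 1, were not tested when at least 10 reads were required in every library, which left 8 members.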
